A study of Mus musculus with 6 samples.

Results

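The 10 genes Sox2, Sox9, Nkx2-1, Foxa1, Foxa2, Foxp1, Foxp2, Foxp4, Gata6 and Id2 encode transcription factors, or in the case of Id2 a partner of such factors, that pattern the epithelium of the embryonic lung along its proximal and distal axis. They were chosen by name, with earlier results of these data known. Each was found once among the 23420 genes listed for embryonic lungs at E11.5, in days post coitus. All 10 were among the 17168 genes tested. RNA was measured in 3 pools of control lungs (Raptorf/+; ShhCre/+) and 3 pools of mutant lungs (Raptorf/f; ShhCre/+), with 3 or 4 lungs in a pool, to learn how transcripts change when the mTORC1 subunit Raptor is removed from the lung epithelium. Cre is made where the Shh gene is active, which in the lung is the epithelium, so the mesenchyme, vessels and nerves of a mutant lung keep Rptor, the gene for Raptor. Both groups carry the ShhCre allele, and the control epithelium carries 1 floxed Rptor allele, so the control lungs are not wild type.

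As the lung buds branch, cells at the distal tips express Sox9 and Id2 and remain progenitors, while cells left behind in the stalks switch on Sox2 and go on to form the conducting airways. Nkx2-1 marks the lung field in the foregut endoderm, and Foxa1, Foxa2 and Gata6 act with it on genes of the lung epithelium. Foxp1, Foxp2 and Foxp4 are repressors of the forkhead family that act in the same epithelium, and several of these genes are also active outside it, such as Gata6 and Foxp1 in mesenchyme or vessels and Sox9 in the cartilage of the airways.

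Sox2, Nkx2-1, Foxa1 and Foxa2 were the 4 genes with an unadjusted p under 0.05 and a lower level in mutant lungs, so their promoter windows are shown. Each runs from 250 bases before to 50 bases after a RefSeq start of the gene in GRCm38.p6, the most upstream one where the gene has several (1 of 3 for Foxa2), is written 5′ to 3′ on the strand of the gene, and has in capitals the matches to 2 of the 4 motifs searched. The windows lie at chr3:34649745-34650044 (plus strand, Sox2), chr12:56536859-56537158 (minus strand, Nkx2-1), chr12:57546062-57546361 (minus strand, Foxa1) and chr2:148046920-148047219 (minus strand, Foxa2).
Sox2: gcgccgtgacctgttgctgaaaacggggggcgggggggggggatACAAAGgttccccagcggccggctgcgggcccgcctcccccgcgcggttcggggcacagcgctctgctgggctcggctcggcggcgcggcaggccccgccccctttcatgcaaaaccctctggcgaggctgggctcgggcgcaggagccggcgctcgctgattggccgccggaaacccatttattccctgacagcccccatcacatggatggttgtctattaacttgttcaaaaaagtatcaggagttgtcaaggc
Nkx2-1: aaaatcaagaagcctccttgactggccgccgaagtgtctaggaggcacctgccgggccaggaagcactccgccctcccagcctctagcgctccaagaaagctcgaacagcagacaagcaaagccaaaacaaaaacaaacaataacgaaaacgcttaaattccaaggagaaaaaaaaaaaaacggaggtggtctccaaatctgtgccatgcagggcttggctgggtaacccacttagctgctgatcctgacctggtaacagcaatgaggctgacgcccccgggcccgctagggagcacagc
Foxa1: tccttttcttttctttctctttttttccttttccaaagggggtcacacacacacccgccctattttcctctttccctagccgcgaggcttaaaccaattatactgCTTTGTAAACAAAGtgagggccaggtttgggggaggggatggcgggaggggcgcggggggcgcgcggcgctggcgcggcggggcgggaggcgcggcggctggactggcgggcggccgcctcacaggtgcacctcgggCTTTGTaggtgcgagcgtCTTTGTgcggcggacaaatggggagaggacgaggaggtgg
Foxa2: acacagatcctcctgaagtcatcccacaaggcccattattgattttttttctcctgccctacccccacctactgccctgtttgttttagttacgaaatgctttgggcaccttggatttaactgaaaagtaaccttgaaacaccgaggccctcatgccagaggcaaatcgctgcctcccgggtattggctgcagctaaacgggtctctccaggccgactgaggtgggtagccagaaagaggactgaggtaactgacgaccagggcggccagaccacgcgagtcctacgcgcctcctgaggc

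The motifs were TGTTTAC for forkhead factors, ACAAAG for SOX factors, CAAGTG for NKX2 factors and AGATAA for GATA factors, each sought on both strands. Of 32851 promoter windows of the same length, 3.65% held the forkhead motif, 18.7% the SOX motif, 13.6% the NKX2 motif and 11.2% the GATA motif. The Foxa1 window held 1 forkhead match, which overlapped 2 SOX matches on either side, and 2 further SOX matches near the start. The Sox2 window held 1 SOX match, and those of Nkx2-1 and Foxa2 held 0 matches to the 4 motifs. RefSeq windows were found for 7 of the 10 genes, which leaves Sox9, Foxp2 and Gata6 unmatched. Of the other 3 windows, that of Foxp1, also the most upstream of 3, held 2 SOX matches and those of Foxp4 and Id2 held 0 matches. The Sox2 window ends before the gene starts in the GENCODE M21 annotation and the Foxa1 window lies within the gene there, since the annotations place these starts differently. A match describes these letters and not binding.

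Values are normalized counts as the authors deposited them, that is, reads per gene after division by a factor for the depth of each library. Whole reads could be recovered and summed to between 20197642 and 21276090 per pool. The count of Rptor was 2126, 2193 and 2279 in control pools 1, 2 and 3, against 2023, 2137 and 2148 in mutant pools 1, 2 and 3, which overlap (log2 fold change -0.06, limma adjusted p = 0.584). Since the count covers the whole gene in whole lungs, it is a weak check of the labels. For Shh, whose promoter drives Cre, limma gave a log2 fold change of -0.03 with an adjusted p of 0.854. Control pool 3 lay farthest from the other pools of its group, but control pool 2 was close behind. For control pool 3 the median distance was 0.11 on the log2 scale over the 11458 genes with a mean of at least 100. For the other 5 pools it was 0.05 to 0.09, with control pool 2 at 0.09. Over the 10 genes described here the distance was 0.28 for control pool 3, 0.23 for control pool 2 and 0.03 to 0.08 for the other pools, so calls are given with and without control pool 3 where they differ.

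In mutant lungs Sox2, Foxa1 and Foxa2 were lower and Gata6 was higher in every pool than in every control pool, Nkx2-1 was lower but for a single control pool, and the other 5 genes overlapped. With limma, 0 of the 10 genes had an adjusted p under 0.05, a level reached by 0.501% of all tested genes. An unadjusted p under 0.05 was reached by 5 of the 10, against 13.6% of all tested genes. Of these 5, 4 were lower (6.89% of all tested genes) and 1 was higher (6.67%). Since the 10 genes were chosen with earlier results known, such counts beside the shares are a description and not a test. Groups did not overlap for 4 of the 10 genes, against 20.2% of all tested genes, with 3 lower (10.5%) and 1 higher (9.77%). On recovered reads edgeR called 0 of the 10 genes (0.539% of genes tested with it) and DESeq2 called 1, Sox2 (1.46%). At an unadjusted p under 0.05 each of these tools counted 5 of the 10 genes, against 14.9% of all genes for edgeR and 8.21% for DESeq2. These are whole lungs, in which fewer cells of a type and less RNA in each cell cannot be told apart. The pools hold different embryos, but the spread within a group is that of 3 pools.

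**Figure D1:**
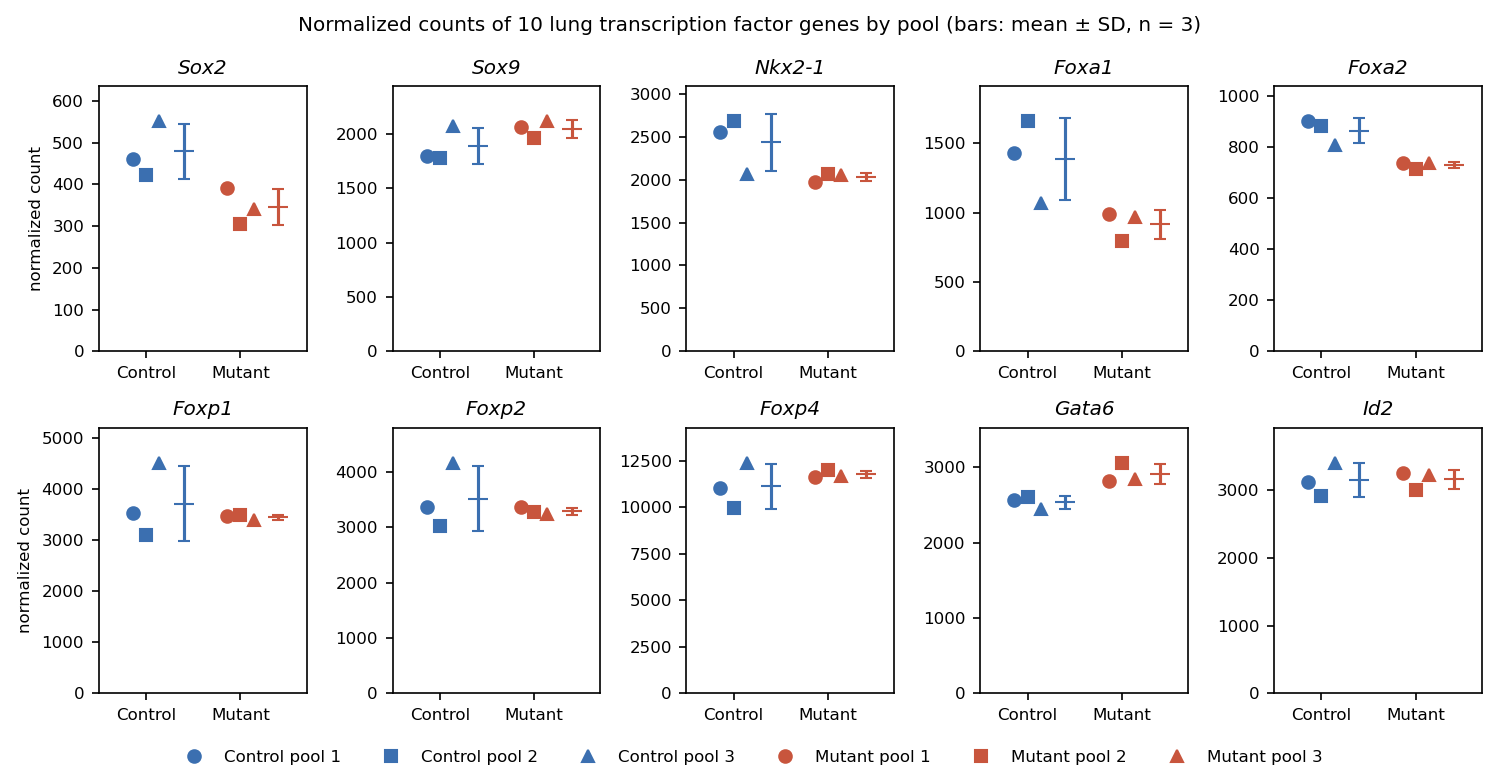
Normalized count (vertical axes, each from 0) of the 10 genes in the control pools (blue) and the mutant pools (red), with 1 point per pool and the mean ± SD of 3 pools beside the points. The mutant points of Sox2, Foxa1 and Foxa2 lie below all control points, those of Gata6 lie above, and control pool 3 (triangle) is the highest point for Foxp1, Foxp2 and Foxp4.

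Sox2, the SOX factor of the proximal airway, lies on chromosome 3 of GRCm38 from 34650405 to 34652461 as a single exon inside Sox2ot, a long non-coding transcript of the same strand. Its normalized count was 462, 423 and 553 in control pools 1, 2 and 3, against 390, 304 and 341 in mutant pools 1, 2 and 3. All mutant pools were below all controls, with mutant pool 1 nearest to the controls. The means were 479 ± 66.8 (SD, n = 3) and 345 ± 43.3 (SD, n = 3), a difference of -28.0%. This gave a log2 fold change of -0.47 with a 95% interval from -0.73 to -0.21 (limma adjusted p = 0.124, edgeR adjusted p = 0.119). With DESeq2 the same change passed the threshold (adjusted p = 0.0233). Sox2ot was at 27.5, 25.8 and 28.8 in the controls, against 31.7, 20.6 and 10.8 in the mutants, far below Sox2, and its groups overlapped (log2 fold change -0.48, limma adjusted p = 0.585). As Sox2ot is on the same strand, counting by strand would not separate its reads from those of Sox2. Whether the reads were counted by strand is not given in the sources used here. It matters for Nkx2-1, Foxp4 and Gata6, which overlap genes of the opposite strand.

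Sox9, the SOX factor of the distal tips, lies on chromosome 11 from 112782224 to 112787760. Its pools were at normalized counts of 1797, 1779 and 2073 in the controls, against 2063, 1956 and 2119 in the mutants. Control pool 3 was level with the mutant pools, and the other 2 control pools were below all 3 of them. The means were 1883 ± 165 (SD, n = 3) and 2046 ± 82.9 (SD, n = 3). On the log2 scale the difference was 0.12 with an interval from -0.02 to 0.26 (limma adjusted p = 0.431). Without control pool 3 it was 0.19 and passed the threshold (limma adjusted p = 0.0438, edgeR adjusted p = 0.0357).

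Id2, an inhibitor of basic helix-loop-helix factors and a marker of the tips, lies on chromosome 12 from 25093799 to 25097140. The pools had normalized counts of 3123, 2909 and 3404 in the controls, against 3253, 3002 and 3217 in the mutants. The mutant values lay within the range of the controls, with a log2 fold change of 0.01 (interval -0.12 to 0.14, limma adjusted p = 0.969).

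Nkx2-1, the homeodomain factor that defines the lung field, lies on chromosome 12 from 56531958 to 56536908. Its normalized count was 2553, 2686 and 2060.49 in control pools 1, 2 and 3, against 1977, 2060.94 and 2050 in mutant pools 1, 2 and 3. Control pools 1 and 2 were above all mutant pools, while control pool 3 was level with them and below mutant pool 2 by less than 1 count. The means were 2433 ± 330 (SD, n = 3) and 2029 ± 45.7 (SD, n = 3), a difference of -16.6%. On the log2 scale this was -0.25 with an interval from -0.44 to -0.07 (limma adjusted p = 0.218). Nkx2-1 fell by 0.37 on the log2 scale when control pool 3 was left out (limma adjusted p = 0.000995).

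Foxa1, a forkhead factor that opens chromatin in endoderm, lies on chromosome 12 from 57540628 to 57546916. Normalized counts of Foxa1 were 1428, 1664 and 1071 in the controls, against 988, 796 and 967 in the mutants. The groups did not overlap, and control pool 3 lay closer to the mutant pools than to the other controls. The means were 1388 ± 298 (SD, n = 3) and 917 ± 105 (SD, n = 3), a difference of -33.9%. The log2 fold change of -0.58 was the lowest of the 10 genes, with an interval from -0.89 to -0.27 (limma adjusted p = 0.118, edgeR adjusted p = 0.111). Foxa1 fell by 0.76 when control pool 3 was left out (limma adjusted p = 0.000906).

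Foxa2, the close relative of Foxa1 that shares its role in the lung endoderm, lies on chromosome 2 from 148042877 to 148046969. Normalized counts of Foxa2 were 904, 882 and 808 in the controls, against 738, 715 and 738 in the mutants. All mutant pools were below all controls, and the mutant pools differed little among themselves. The means were 865 ± 50.1 (SD, n = 3) and 730 ± 13.4 (SD, n = 3), a difference of -15.6%. This amounted to a log2 fold change of -0.24 with an interval from -0.38 to -0.11 (limma adjusted p = 0.124, edgeR adjusted p = 0.110). Without control pool 3 Foxa2 fell by 0.29 (limma adjusted p = 0.0165).

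Gata6, a zinc finger factor of endoderm that also acts in mesenchyme and heart, was the gene of the 10 with the highest log2 fold change. Its normalized count was 2560, 2604 and 2440 in the controls, against 2815, 3060 and 2841 in the mutants. Every mutant pool was above every control pool. The means were 2535 ± 84.9 (SD, n = 3) and 2905 ± 135 (SD, n = 3), a difference of 14.6%. On the log2 scale it was higher by 0.20 with an interval from 0.09 to 0.30 (limma adjusted p = 0.121, DESeq2 adjusted p = 0.0514). Leaving out control pool 3 gave 0.17 (limma adjusted p = 0.0647).

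The Foxp genes varied more between control pools than between groups. Foxp1, on chromosome 6 from 98925338 to 99522721, stood at normalized counts of 3535, 3101 and 4522 in the controls, against 3473, 3491 and 3395 in the mutants. Foxp2, on chromosome 6 from 14901349 to 15441977, was at 3367, 3018 and 4167 in the controls, against 3358, 3268 and 3237 in the mutants. For both, control pool 3 was the highest and control pool 2 the lowest of the 6 pools. The log2 fold change was -0.09 (interval -0.33 to 0.15) for Foxp1 and -0.08 (interval -0.29 to 0.12) for Foxp2, and without control pool 3 these turned to 0.06 and 0.04. Foxp4, on chromosome 17 from 47867133 to 47924645, was at 11016, 9947 and 12389 in the controls, against 11634, 11973 and 11675 in the mutants. The mutant pools lay within the range of the controls, and the log2 fold change was 0.09 (interval -0.06 to 0.24). For Foxp4 it was 0.17 without control pool 3 (limma adjusted p = 0.0520) and 0.0096 without control pool 2. The limma adjusted p was 0.759 for Foxp1, 0.744 for Foxp2 and 0.615 for Foxp4. The SD of the 3 mutant pools was 51.1 for Foxp1 and 62.6 for Foxp2, against 728 and 589 in control pools.

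**Figure D2:**
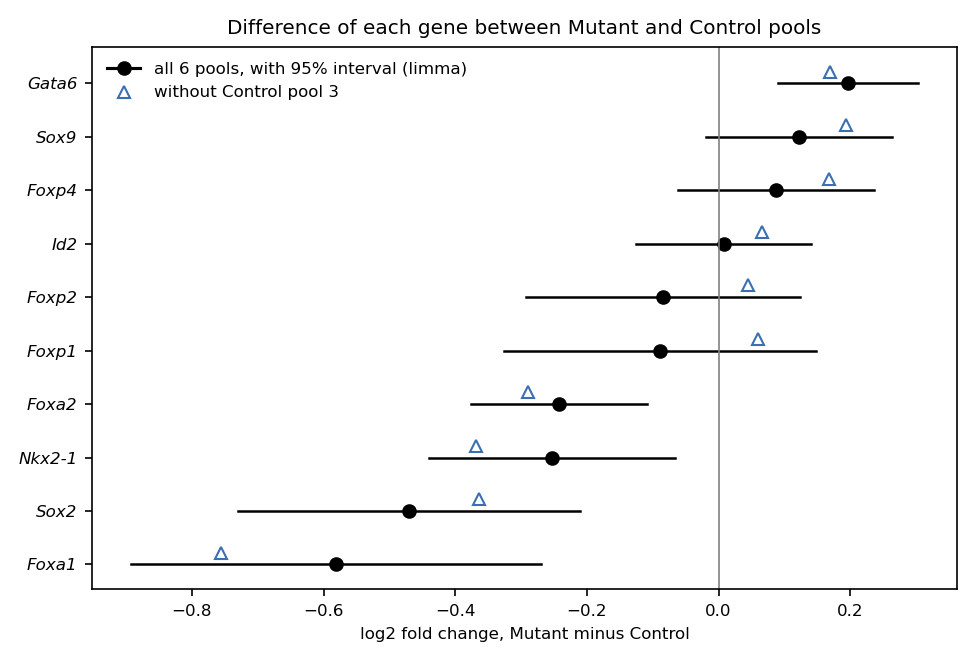
Log2 fold change of the 10 genes, mutant minus control (horizontal axis), from limma with all 6 pools (black points, lines for the 95% interval) and without control pool 3 (open triangles). The intervals of Foxa1, Sox2, Nkx2-1 and Foxa2 lie below 0 and that of Gata6 above 0, and without control pool 3 the values of Foxp1 and Foxp2 move from below to above 0.

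Without control pool 3, limma called 4 of the 10 genes, with Foxa1, Foxa2 and Nkx2-1 lower and Sox9 higher, against 2.75% of all tested genes in that fit. With edgeR the same 4 genes were called, against 3.68%. Sox2 was not among them. Control pool 3 held its highest value, and its log2 fold change without that pool was -0.36 (limma adjusted p = 0.0804). Leaving out any other pool, control pool 2 included, left 0 of the 10 genes called in limma and edgeR. Over all tested genes those fits called only 1 to 147 with limma and 0 to 186 with edgeR. Without control pool 3 the numbers were 468 and 545, so calls among all genes were also rarer when another pool was left out. For the 4 called genes control pool 3 was the control pool nearest to the mutant pools, so leaving it out widens the difference. It was also picked partly from the values of these 10 genes, so the calls without it describe the pools and are not separate support.

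The pools did not move as one across the 10 genes. Relative to the mean of all 6 pools on the log2 scale, control pool 3 was at 0.45 for Sox2, 0.34 for Foxp1 and 0.30 for Foxp2 but at -0.10 for Nkx2-1 and -0.06 for Foxa1. Control pool 2 was at 0.58 for Foxa1 and 0.28 for Nkx2-1 but at -0.20 for both Foxp1 and Foxp4. Control pool 1 lay between them for Foxa1, Nkx2-1, Foxp1, Foxp2 and Foxp4. Mutant pool 2 was the lowest of the 6 pools for Sox2, at -0.41, and for Foxa1, at -0.49.

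Markers of other foregut derivatives differed between pools as well, and the part that they have in the values of Sox2 was not tested. Pax9, a gene of the pharynx and oesophagus, had a normalized count of 17.7, 2.07 and 49.7 in the controls, against 7.15, 2.94 and 10.8 in the mutants. Barx1, a gene of oesophagus and stomach mesenchyme, was at 149, 98.1 and 199 in the controls, against 103, 134 and 126 in the mutants. Trp63, a basal cell factor named after its values were seen, was at 35.4, 7.23 and 89.5 in the controls, against 32.7, 9.80 and 30.4 in the mutants. For these 3 genes of the 6 listed, control pool 3 was the highest of the 6 pools, as it was for Sox2. It was also the highest for Sox21, an airway epithelium gene outside this list, at 82.5. The keratin genes of the list did not share this. Krt14 was at 60.9, 81.6 and 64.6 in the controls, against 86.8, 103 and 79.5 in the mutants (log2 fold change 0.38, limma adjusted p = 0.372). Krt5 was at 8.84, 3.10 and 8.95 in the controls, against 13.3, 4.90 and 12.8 in the mutants, so that mutant pools 1 and 3 were above control pool 3. Krt13 was listed at 0 in 5 of the 6 pools. Summed over the 6 genes of the oesophagus and stomach list, the pools ranged from 192 to 412 in control lungs and from 245 to 259 in mutant lungs. With limma 0 of its 5 tested genes passed (0 at an unadjusted p under 0.05, median log2 fold change -0.25). With edgeR and DESeq2 0 passed as well, but Krt5 was not tested in edgeR. Neither Krt5 nor Pax9 had an adjusted p in DESeq2.

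**Figure D3:**
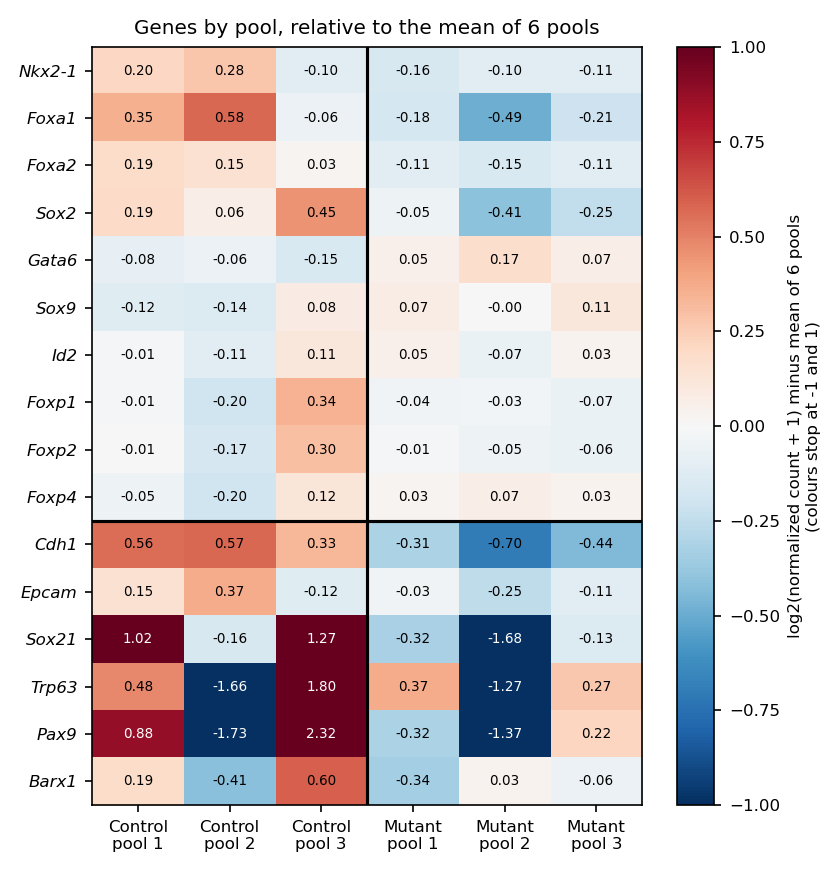
Log2(normalized count + 1) of each gene in each pool minus the mean of the 6 pools (red above, blue below, colours stopping at -1 and 1), with the 10 genes above the line and 6 genes for comparison below it. Control pool 3 is high for Sox2, Sox21, Pax9, Barx1, Trp63, Foxp1 and Foxp2 and below the other control pools for Nkx2-1, Foxa1 and Epcam.

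Ratios between genes of the same pool are free of the scaling between libraries. For 8 ratios, differences between groups were tested by exact permutation of the pools (two-sided), for which 0.1 is the smallest p with 3 pools against 3. The log2 ratio of Gata6 to Nkx2-1 was 0.00, -0.04 and 0.24 in the controls, against 0.51, 0.57 and 0.47 in the mutants. Every mutant pool was higher, by 0.45 in the mean (exact permutation test, p = 0.1). The log2 ratio of Sox9 to Nkx2-1 was -0.51, -0.59 and 0.01 in the controls, against 0.06, -0.08 and 0.05 in the mutants. Here control pool 3 lay among the mutant pools, and the difference was 0.37 (exact permutation test, p = 0.2).

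Set against Nkx2-1 rather than Sox9, Sox2 showed no separation of the groups. The log2 ratio of Sox2 to Nkx2-1 was -2.46, -2.67 and -1.90 in the controls, against -2.34, -2.76 and -2.59 in the mutants, with a difference of -0.22 (exact permutation test, p = 0.6). Without control pool 3 that difference was 0.00. The ratio of Sox2 to Sox9 was lower in every mutant pool, with a difference of -0.59 (exact permutation test, p = 0.1).

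Close relatives kept their proportions to differing degrees. The log2 ratio of Foxp1 to Foxp2 was 0.07, 0.04 and 0.12 in the controls, against 0.05, 0.10 and 0.07 in the mutants, so that the pools that differed in both genes differed little in their ratio (difference -0.0049, exact permutation test, p = 0.9). The log2 ratio of Foxp4 to Foxp2 was 1.71, 1.72 and 1.57 in the controls, against 1.79, 1.87 and 1.85 in the mutants. Every mutant pool was higher, by 0.17 (exact permutation test, p = 0.1). The log2 ratio of Foxa1 to Foxa2 was 0.66, 0.91 and 0.41 in the controls, against 0.42, 0.16 and 0.39 in the mutants, which overlap (difference -0.34, exact permutation test, p = 0.2). Between the tip genes, the log2 ratio of Id2 to Sox9 was 0.80, 0.71 and 0.72 in the controls, against 0.66, 0.62 and 0.60 in the mutants. Every mutant pool was lower, with a difference of -0.11 (exact permutation test, p = 0.1).

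**Figure D4:**
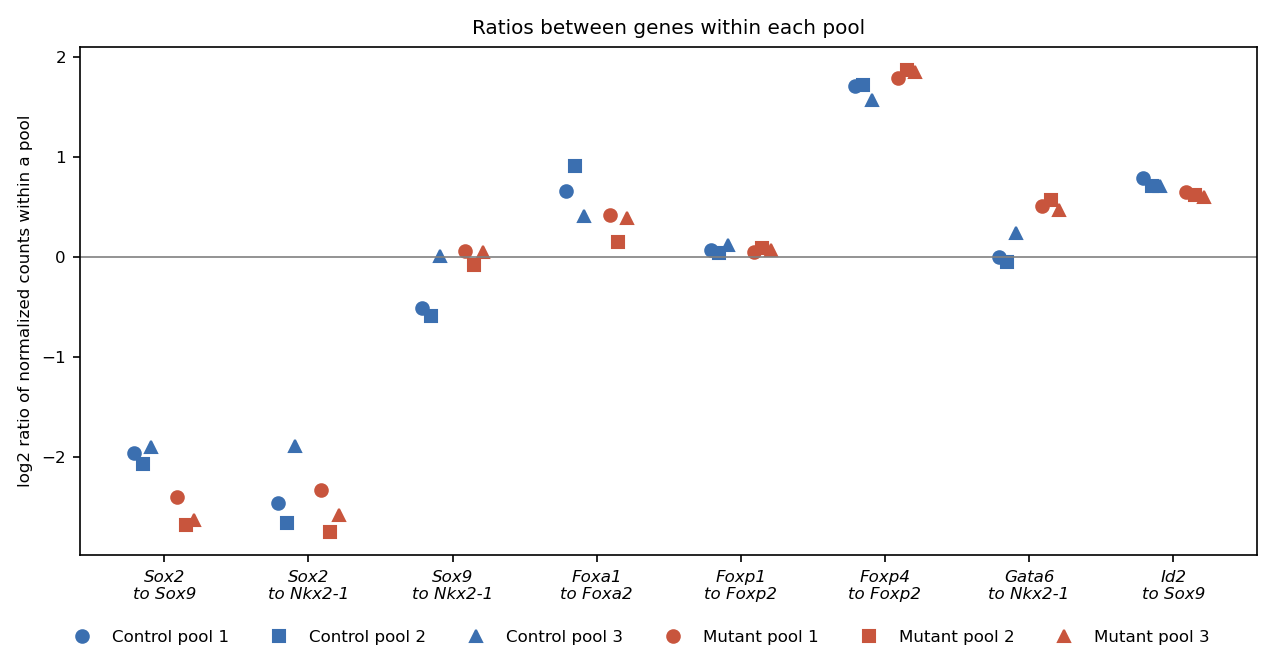
Log2 ratio of the normalized counts of 2 genes within each pool (vertical axis) for 8 pairs of genes, with control pools in blue and mutant pools in red. The groups do not overlap for Sox2 to Sox9, Foxp4 to Foxp2, Gata6 to Nkx2-1 and Id2 to Sox9, and they overlap for the other 4 pairs.

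Per kilobase of merged exon in GENCODE M21, Foxp4 had the highest level in control lungs, at 2257 ± 249 normalized counts per kb (SD, n = 3), followed by Id2 at 1290 ± 102 and Nkx2-1 at 856 ± 116. Sox9 (455 ± 39.9), Foxa1 (417 ± 89.7), Gata6 (389 ± 13.0) and Foxa2 (365 ± 21.2) came next, and neighbours in this order overlapped between pools. Foxp1 (270 ± 52.9), Sox2 (233 ± 32.5) and Foxp2 (215 ± 36.0) were the lowest and also overlapped. In mutant lungs Foxp4, Id2, Nkx2-1 and Sox9 led in the same order, Gata6 (446 ± 20.7) was above Foxa2 (308 ± 5.64) and Foxa1 (276 ± 31.6), and Sox2 (168 ± 21.1) was the lowest. Merged exons count every isoform, which lowers the level per kb of long genes with many exons such as Foxp1 and Foxp2, and the annotation used for counting is not given in the sources used here.

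**Figure D5:**
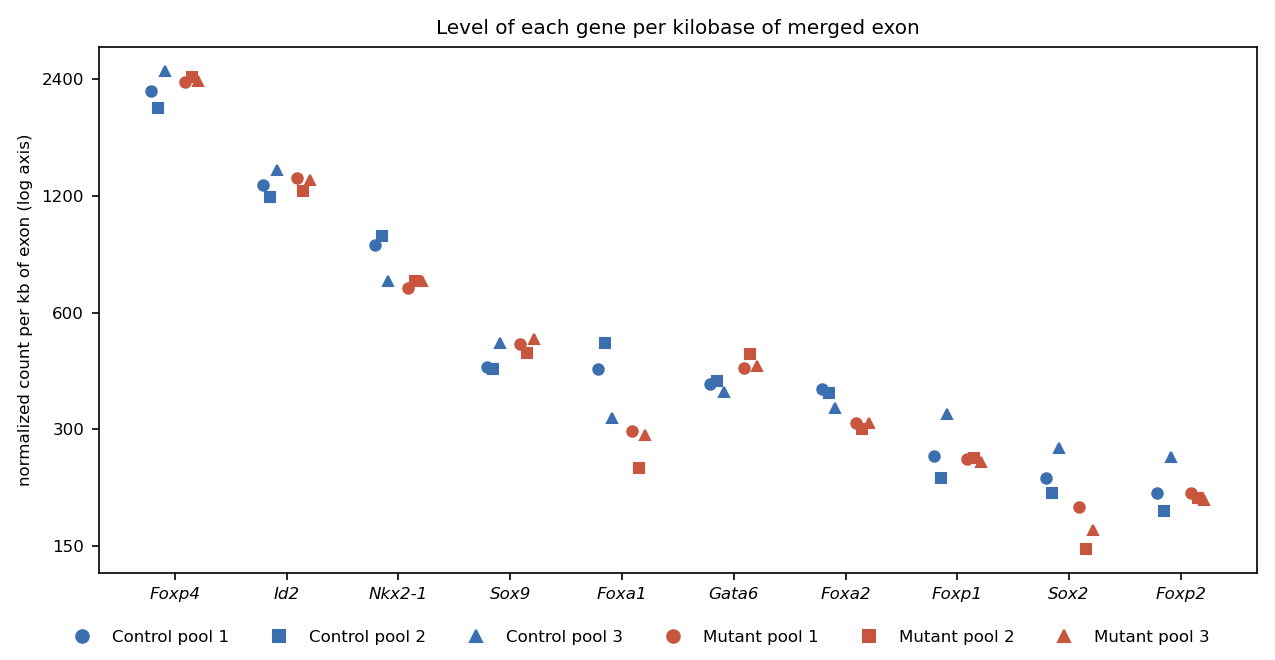
Normalized count per kilobase of merged exon (log axis) of the 10 genes in each pool, ordered by the mean of the control pools (blue), with mutant pools in red. Foxp4, Id2 and Nkx2-1 lie above the other 7 genes in all 6 pools, and Sox2 is the lowest in the mutant pools.

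By Pearson correlation over the 6 pools, among 11458 genes with a mean of at least 100, the genes most like Sox2 were Asap2 (r = 0.994), Gm20748 (0.989) and Rab11fip4 (0.987). Those most like Sox9 were Dcaf6 (0.995), Ube2h (0.983) and Plxna4 (0.978), and those most like Nkx2-1 were Rrs1 (0.995), Klc2 (0.992) and Ddx39 (0.991). With 6 points and so many genes searched, values this high are a description of these pools only.

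Other members of the same families showed 0 calls with limma among 28 tested paralogs of 33 listed. At an unadjusted p under 0.05, 4 were higher and 4 lower, against 6.67% and 6.89% of all tested genes. Their median log2 fold change was -0.04, against -0.00212 over all tested genes. With edgeR 0 were called as well, though some low genes were not tested there. DESeq2 called 2 of the paralogs, Nkx2-5 and Sox21, both lower, against 1.46% of genes tested with it. Sox21, a relative of Sox2 in the airway epithelium, had a normalized count of 68.8, 30.0 and 82.5 in the controls, against 26.6, 9.80 and 30.4 in the mutants, which overlap between control pool 2 and mutant pool 3 (log2 fold change -1.42, limma adjusted p = 0.202). Nkx2-5, a heart factor, was at 52.1, 17.6 and 72.6 in the controls, against 20.4, 9.80 and 11.8 in the mutants, which overlap as well. Of 12 genes for partners of these factors, 0 were called with limma, edgeR or DESeq2, and Wwtr1, a coactivator that binds Nkx2-1, was the 1 gene with an unadjusted p under 0.05 (log2 fold change 0.16, limma adjusted p = 0.189).

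Genes that lie downstream of, or mark the same regions as, the 10 factors were described from lists. Of all tested genes, 6.89% were lower at an unadjusted p under 0.05, and limma called 2.75% in either direction without control pool 3. Of 6 tested proximal airway genes 0 were called with limma, 1 was lower at an unadjusted p under 0.05 (Sox21), and the median log2 fold change was -0.14. With edgeR 0 were called as well, though the lowest of these genes were not tested there. At this stage the list was close to 0 for later secretory markers such as Scgb1a1 and Scgb3a2. Of 8 distal tip genes 0 were called with limma or edgeR, 4 were lower at an unadjusted p under 0.05, and the median was -0.11. The log2 fold change was negative for 5 of the 8 and positive for 3, with a highest value of 0.14. Wnt7b, an epithelial Wnt ligand activated by Nkx2-1, had a normalized count of 3950, 4048 and 3275 in the controls, against 2993, 2568 and 2825 in the mutants, with no overlap (log2 fold change -0.42, limma adjusted p = 0.0604). Fgfr2, the receptor for Fgf10 at the tips, was at 2941, 3298 and 2936 in the controls, against 2724, 2512 and 2618 in the mutants, also with no overlap (log2 fold change -0.22, limma adjusted p = 0.124). DESeq2 called both, and limma called both without control pool 3, along with Etv5. With all 6 pools the groups of Etv5 overlapped (log2 fold change -0.20, limma adjusted p = 0.366). Of 7 tested lung targets of these factors 0 were called with limma or edgeR, and Wnt7b was the 1 gene with an unadjusted p under 0.05 (median log2 fold change -0.03). Without control pool 3 limma called Wnt7b and Cldn18, a claudin of the lung epithelium, both lower. Cldn18 was at 483, 595 and 333 in the controls, against 362, 344 and 354 in the mutants (log2 fold change -0.37, limma adjusted p = 0.369, and -0.60 with adjusted p = 0.00481 without control pool 3).

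Epithelial marker genes were lower in mutant lungs beside Sox2, Nkx2-1, Foxa1 and Foxa2. Of 20 epithelial genes, 7 fell in mutant lungs (limma adjusted p under 0.05), against 0.501% of all tested genes called in either direction. They were Cdh1, Cldn6, Krt8, Krt18, Cldn4, Spint1 and Grhl2. Without control pool 3 the calls were 16 lower and 1 higher, against 2.75%. The gene that rose was Krt19, at 283, 335 and 287 in the controls, against 384, 437 and 407 in the mutants. Its groups did not overlap (log2 fold change 0.44, limma adjusted p = 0.0734, DESeq2 adjusted p = 0.0240). Of the 7, 0 passed in all 6 fits that left out 1 pool. The limma fits without control pool 1 and without mutant pool 3 each called only 1 gene over all tested genes. So few of the 7 could have passed in every fit, and this count says little about them. Over the 20 genes, 19 had a negative log2 fold change and the median was -0.47. Their summed normalized count ranged from 16220 to 20043 in control pools and from 12738 to 13775 in mutant pools. Cdh1, for E-cadherin, was at 1507, 1522 and 1288 in the controls, against 824, 630 and 753 in the mutants (log2 fold change -0.97, limma adjusted p = 0.00728). Epcam, another epithelial surface gene named after its values were seen, was at 1880, 2184 and 1560 in the controls, against 1652, 1420 and 1564 in the mutants, which overlap. As for Nkx2-1 and Foxa1, control pool 3 was the lowest of the control pools for Cdh1 and Epcam. When each library was scaled to these 20 genes, the median of all tested genes rose by 0.42, and 5 of the 10 genes were called, all higher (Sox9, Foxp2, Foxp4, Gata6 and Id2), against 63% of all tested genes. The log2 fold change on that scale was -0.05 for Sox2, 0.17 for Nkx2-1, -0.16 for Foxa1 and 0.18 for Foxa2, so that the direction of Nkx2-1 and Foxa2 turned. Relative to the median of all genes the values were -0.46, -0.24, -0.57 and -0.23.

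Lists for other cell types and neighbouring organs went in either direction. Of all tested genes, limma called 0.501% in either direction, and 2.75% without control pool 3. At an unadjusted p under 0.05, 6.67% were higher and 6.89% lower, and 8495 of 17168 had a positive log2 fold change. Of 12 mesenchyme genes 4 rose (Col1a1, Col1a2, Col3a1 and Fgf10, limma adjusted p under 0.05; 6 without control pool 3) and all 12 had a positive log2 fold change, with a median of 0.16. Gata6 and Foxp1, which are also active there, were at 0.20 and -0.09. Of 8 endothelium genes 0 were called with limma or edgeR and 1 with DESeq2 (Tie1), 5 were higher at an unadjusted p under 0.05, and the median was 0.19. Heart muscle genes (8 tested) had a median of -0.24 with 2 lower at an unadjusted p under 0.05, of which Myh6 was called with DESeq2. Cartilage genes (5 tested of 6), which include a setting where Sox9 is active, had a median of 0.20, with 1 higher at an unadjusted p under 0.05 (Hapln1). Of the 5, 3 had a positive and 2 a negative log2 fold change. Col2a1 was at -0.11 with overlapping groups. Thyroid genes (5 tested of 6) had a median of 0.01 with 0 at an unadjusted p under 0.05, and liver genes (6) a median of -0.26 with 1 lower (Afp). With limma and edgeR 0 genes of the heart muscle, cartilage, thyroid and liver lists were called, and with DESeq2 0 of the last 3 of these. Without control pool 3 limma called 2 heart muscle genes lower (Myh6, adjusted p = 0.00435, and Myl7, adjusted p = 0.0279), 1 liver gene lower (Afp, adjusted p = 0.0295) and 1 endothelium gene higher (Tie1, adjusted p = 0.0301). Their part in the values of the 10 genes was not tested.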

How the data were processed

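Whole lungs of E11.5 embryos gave 3 control and 3 mutant pools, grouped by the genotype in the labels. The paper names a BGISEQ instrument for the sequencing of their RNA, while the labels name an Illumina library protocol. The signal values that the authors deposited are normalized counts, that is, reads per gene after division by a factor for the depth of each library. The deposited log2 fold changes with their standard errors, test statistic (a score) and p-values are the authors' own comparison and were not used. The submitters' processing notes name Trim Galore, HISAT2, featureCounts, DESeq2 and the build mm10, and versions are not given in the sources used here. The paper's statistics section names two-tailed t-tests in general and none for all genes, so limma was used.

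The 10 genes, the gene lists and the tests were chosen with earlier results of these data known. Normalized counts were compared with limma 3.58.1 in R 4.3.3 (eBayes with trend) on log2(normalized count + 1), with no block, keeping genes that reached 1 or more in 3 or more libraries. P-values were adjusted over all 17168 tested genes by the Benjamini-Hochberg method, with a threshold of 0.05. The fold change of low genes is understated on this scale. Ratios were tested by exact permutation of the pools (two-sided). All values of the 6 libraries were whole multiples of a step within 0.01 reads, so edgeR 4.0.16 (quasi-likelihood, TMM, filterByExpr) and DESeq2 1.42.0 were run on the reads. Scripts were tested on simulated data. The other alternatives were limma without the trend, upper-quartile scaling (75th percentile), no filter, at least 10 in every library, a pseudocount of 0.1, scaling to 20 epithelial genes, a replicate block, and leaving out each pool. Leaving out pools in edgeR and the block in edgeR were chosen after seeing the data.

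Named genes were taken from the 10 genes, the 3 of each list with the lowest p and any called, genes overlapping the 10, the 3 most alike to Sox2, Sox9 and Nkx2-1, Rptor and Shh. Not every gene that meets this rule is named. Genes outside it are marked, apart from Krt5, from Etv5 and Krt19, which were called in other fits only, and from markers named as being near 0. Positions and exon lengths are from GENCODE M21 (GRCm38), and promoters from RefSeq (GRCm38.p6). The symbols of 27 genes had been altered to dates and were not restored. The result of 1 marker list is not reported here.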

Additional observations from a re-analysis of the deposited data

How the results depend on the processing

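With limma 86 genes were called over all tested genes, against 8 without the trend, 279 with DESeq2 and 10940 when scaled to epithelial genes. Leaving out 1 pool gave 1 to 468 genes with limma and 0 to 545 with edgeR, the highest without control pool 3 and the lowest without control pool 1 or mutant pool 3. Of the 10 genes 0 were called, against 1 with DESeq2 and 5 when scaled to epithelial genes, and 0 to 4 when 1 pool was left out (limma and edgeR).

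With DESeq2 the log2 fold change of Sox2 was -0.47 and passed (adjusted p = 0.0233). Scaled to epithelial genes, which adds 0.42 to the median of all genes by construction, the log2 fold changes were 0.55 for Sox9, 0.51 for Foxp4, 0.62 for Gata6, 0.43 for Id2 and 0.34 for Foxp2, which passed, and 0.17 for Nkx2-1, 0.18 for Foxa2 and 0.33 for Foxp1, which turned in sign without passing. Foxp2 also turned in sign.

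When 1 pool was left out, the log2 fold change over limma and edgeR together ranged from 0.081 to 0.19 for Sox9, -0.37 to -0.18 for Nkx2-1, -0.76 to -0.44 for Foxa1, -0.29 to -0.21 for Foxa2, -0.22 to 0.060 for Foxp1, -0.20 to 0.044 for Foxp2, -0.047 to 0.066 for Id2, -0.57 to -0.36 for Sox2, 0.16 to 0.22 for Gata6 and 0.0077 to 0.17 for Foxp4, the last lowest without control pool 2 and highest without control pool 3. The value without control pool 3 is the end of the range farthest from 0 for Sox9, Nkx2-1, Foxa1 and Foxa2, which then passed, and the positive end for Foxp1, Foxp2 and Id2. The cause was not tested. The sign of Sox2, Sox9, Foxa1, Foxp4 and Gata6 was the same in all 22 alternatives. For the 8 ratios, each alternative moved the difference by less than the spread between pools (pooled SD). This is a wide margin, since Sox2 to Nkx2-1 went from -0.22 to 0.00 without control pool 3 (pooled SD 0.32). The replicate block leaves the differences unchanged by construction.

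The deviations of same-numbered pools correlated at -0.02, 0.10 and 0.03, against -0.11 to 0.08 for pools of different number. With 3 pools a group this cannot settle whether the replicate numbers pair the pools. With the replicate block 71 genes were called with limma and 77 with edgeR, and 0 of the 10 genes. At an unadjusted p under 0.05 the block in limma gave 6 of the 10 genes, against 5 without it. The limma adjusted p of Sox2 was 0.0799 with the block, against 0.124 without it.

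In whole lungs, changes within the epithelium cannot be told apart from changes in its share of the tissue. For genes also active in other cells, they are diluted by those cells as well. With 3 pools a group, the intervals of Foxp1, Foxp2, Foxp4 and Id2 leave room for changes from -0.33 to 0.24 on the log2 scale.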
